A study of Homo sapiens with 9 samples.

Results

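The 58 genes described here encode the machinery that copies DNA in S phase, and they were found in the deposited gene tables by symbol, 58 of 58 among 27111 genes. All 58 had enough counts to be tested, beside 17108 genes tested in all. They were grouped into 10 roles: origin licensing, the MCM2-7 helicase, origin firing, polymerases and primase, the sliding clamp and its loaders, RPA and Okazaki fragment processing, nucleotide supply, chromatin assembly, fork protection, and recombination and repair. The RNA came from multicellular tumor spheroids (MTSs), small balls of cells, of PC-3, an established human line from a bone metastasis of prostate cancer. The cells carried an empty pSIN lentiviral vector (Empty) or the same vector with the long (NF-YAl) or the short (NF-YAs) splice variant of NF-YA, the regulatory subunit of the CCAAT-binding factor NF-Y. All 3 lines were selected with puromycin as stable lines, and each is a single line whose clonality is not stated. Each line had 3 libraries, each of pooled spheroids from an independent experiment. The letters of the libraries were A, B, C for Empty, the same for NF-YAs, and A, B, D for NF-YAl.

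Replication starts when the origin recognition complex, CDC6 and CDT1 load the ring of MCM2 to MCM7 onto DNA in G1. Cyclin E and the kinase CDC7 with DBF4 then let CDC45, the GINS complex and MCM10 turn that ring into an active helicase, and the polymerases follow with the clamp PCNA. Many of these genes are transcribed as cells enter S phase, under E2F factors, and CCAAT boxes bound by NF-Y are common in promoters of cell cycle genes. A bulk library averages all the cells of a spheroid, so fewer cells in S phase and less RNA per cell cannot be told apart by these counts. In a separate assay of PC-3 spheroids, the authors reported more BrdU-positive cells in both overexpressing lines than in Empty, and most in NF-YAs.

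Total expected counts per library ran from 18076979 to 27163976, and the members had 97 to 3732 expected counts each. NFYA, the overexpressed gene, was at 89.2 to 96.7 CPM (counts relative to the library total, scaled by TMM) in Empty, 287 to 383 in NF-YAl and 254 to 264 in NF-YAs. The transgenes are murine, and their reads cannot be told from endogenous ones in these human counts. Of the markers of PC-3, KRT8, KRT18 and CD44 were at 109 CPM or more in all 9 libraries and KLK3 had 0 counts.

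The libraries of NF-YAl stood apart from each other in these genes. Counts over the 58 members are therefore given with and without the libraries at either end. Some calls of single members that appear without 1 of these libraries are named by role. The other gene lists are given only from the main fit of all 9 libraries and from DESeq2. NF-YAl A was the lowest of its group for 55 of 58 members and NF-YAl D the highest for 49. Over all tested genes with at least 5 CPM in each library, NF-YAl A was the lowest for 44.1% and NF-YAl D the highest for 42.9%. Leaving out 1 of these libraries also changes the spread that the fit shares among the groups, so calls in the other comparisons can move with it.

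Promoters were read for motifs because NF-Y binds CCAAT. Windows of 300 bases, from 250 before to 50 after a transcript start of RefSeq (table build GRCh38.p14), were given for 50 members and 69 starts, and all 69 were placed in GRCh37 by an exact match. MCM4, MCM5, GINS4, CCNE2, POLD3, DSCC1, RPA2 and RPA3 had no window. Of the members that passed the test in a comparison, 4 windows are printed: those of MCM10, POLE and TIMELESS, which were higher in NF-YAs, and that of ORC6, which was lower in both lines. These 4 members passed against Empty under all 16 alternative settings, and all 4 windows hold CCAAT. Of the other members that passed, ORC1, RRM1 and RFC5 had 1 match each, and CDT1, POLA2, TYMS and POLD1 had 0. The printed windows read 5′ to 3′ on the strand of the gene, and capitals mark CCAAT on either strand, ATTGG being its reverse complement. They lie in GRCh37 at chr10:13203308-13203607 on the plus strand for MCM10, chr12:133263879-133264178 on the minus strand for POLE, chr12:56843161-56843460 on the minus strand for TIMELESS and chr16:46723321-46723620 on the plus strand for ORC6.
MCM10: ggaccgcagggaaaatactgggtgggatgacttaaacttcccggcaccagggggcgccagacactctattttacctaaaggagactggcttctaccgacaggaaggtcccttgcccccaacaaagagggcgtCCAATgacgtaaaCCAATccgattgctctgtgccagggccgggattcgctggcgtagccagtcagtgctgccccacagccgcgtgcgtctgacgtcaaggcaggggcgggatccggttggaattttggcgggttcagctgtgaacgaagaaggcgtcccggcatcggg
POLE: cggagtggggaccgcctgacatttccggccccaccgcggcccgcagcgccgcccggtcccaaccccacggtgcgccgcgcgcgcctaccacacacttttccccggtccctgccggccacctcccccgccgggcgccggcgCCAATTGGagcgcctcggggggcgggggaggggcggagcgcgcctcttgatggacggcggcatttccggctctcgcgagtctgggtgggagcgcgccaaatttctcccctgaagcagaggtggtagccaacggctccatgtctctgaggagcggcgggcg
TIMELESS: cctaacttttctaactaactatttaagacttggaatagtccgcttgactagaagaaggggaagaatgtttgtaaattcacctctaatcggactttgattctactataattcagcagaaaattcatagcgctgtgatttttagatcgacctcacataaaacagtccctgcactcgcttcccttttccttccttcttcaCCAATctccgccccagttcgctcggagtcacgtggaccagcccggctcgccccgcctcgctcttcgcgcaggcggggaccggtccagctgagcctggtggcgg
ORC6: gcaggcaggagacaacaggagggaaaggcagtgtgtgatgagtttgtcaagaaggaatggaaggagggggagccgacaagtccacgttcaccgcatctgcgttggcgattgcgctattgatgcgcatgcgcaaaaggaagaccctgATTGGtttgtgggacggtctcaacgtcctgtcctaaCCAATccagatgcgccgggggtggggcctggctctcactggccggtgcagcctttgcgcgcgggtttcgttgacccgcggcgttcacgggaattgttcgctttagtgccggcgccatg
Positions of a match are those of its middle base. In MCM10 both motifs were on the strand of the gene, at 116 and 103 bases before the transcript start. In POLE the motif occurred on both strands, at 108 and 105 bases before the start, with 2 bases shared between the matches. TIMELESS had 1 match, at 51 bases before the start, and ORC6 had a match on each strand, at 102 and 66 bases before it.

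CCAAT stood in the windows of 30 of the 50 members (60.0%), against 42.4% of 12173 tested genes with a window. By window, the share was 52.2% of the 69 windows of members and 34.6% of all 35116. At least 2 matches were found in 36% of the members and 15.3% of the tested genes. The windows of members held 68 matches at 65 distinct sites, since 3 sites of CDC45 lie in a pair of its windows that overlap. Of the 68 matches, 40, in 22 genes and at 40 distinct sites, lay between 110 and 30 bases before the start, with a median over all 68 of 83 bases before it. The GC box GGGCGG was found in 80.0% of the members and 72.04% of the tested genes. TTTCCCGC, a form of the E2F site, was found in 26.0% against 2.97%, and TTTGGCGC in 22.0% against 1.21%. TTTGAA, a form of the cell cycle homology region (CHR), was found in 6% against 14.4%. Each motif was searched on both strands. In NF-YAs against Empty, 5 of the 30 members with CCAAT and 0 of the 20 without passed the test. Over all tested genes with a window 23.7% of those with CCAAT and 23.3% of those without passed. The share of members was thus under that of tested genes with CCAAT as well as without. The median log2FC in that comparison was 0.21 over the 30 members with CCAAT and 0.12 over the 20 without. In NF-YAl against Empty, 2 of the 30 and 3 of the 20 passed, all lower, against 10.1% and 9.76% of tested genes lower, with medians of -0.19 and -0.14. Whether the members with and without CCAAT differ was not tested. A match describes letters in a window and says nothing of whether NF-Y was bound there.

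**Figure D1:**
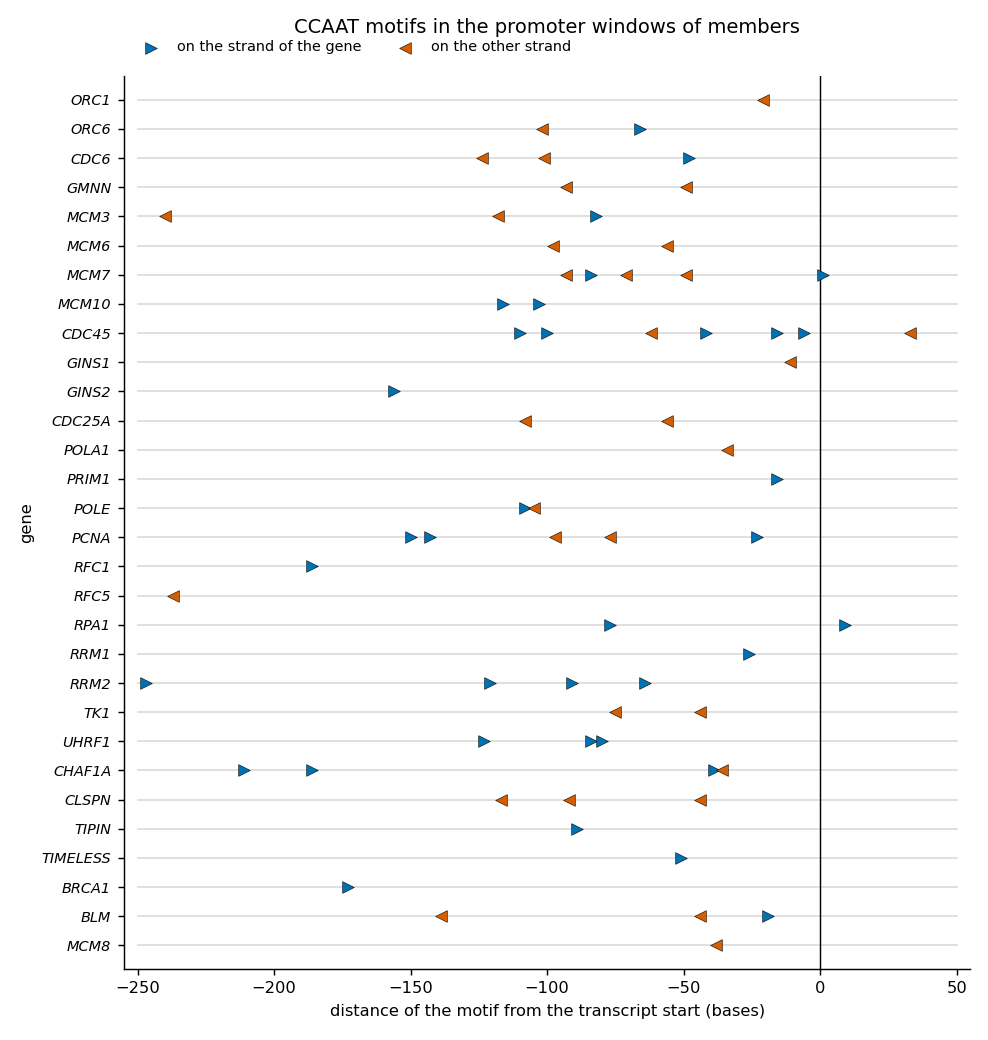
Position of each CCAAT match in the promoter windows of the 30 members that have one, in bases from the transcript start on the horizontal axis, with 1 row per gene. Triangles pointing right are matches on the strand of the gene and those pointing left on the other strand. Positions are of the middle base, 3 sites of CDC45 are drawn 2 times as its windows overlap, and of 68 matches 40 lie between -110 and -30.

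Among themselves the members differed widely in level in Empty. On the TPM scale, which corrects for length, PCNA, the sliding clamp, was the highest at 94.4 ± 14.9 TPM (SD, n = 3), followed by TYMS at 77.9 ± 16.4 and TK1 at 71.4 ± 15.99. PCNA and TYMS, and TYMS and TK1, differed by little more than 1 SD or less. The lowest were BRCA2 at 1.997 ± 0.751 TPM, MCM10 at 2.31 ± 0.501 and BLM at 2.64 ± 0.699. MCM7 at 53.0 ± 9.61 TPM and MCM3 at 40.02 ± 7.34 led the helicase ring. CPM are used from here on, since they compare 1 gene between libraries.

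In NF-YAl against Empty, 6 members passed an adjusted p under 0.01. CCNE2 was higher, and ORC6, CDT1, RRM1, TYMS and POLA2 were lower. Over all tested genes 10% passed as higher and 9.54% as lower, so 1 and 5 of 58 members are no more than the background. The median log2FC of the members was -0.19, against 0.01 over all tested genes, and 45 of the 58 values were negative and 13 positive, against 48.9% and 51.1% of tested genes. The CPM of the groups did not overlap for 11 members lower in NF-YAl and 2 higher, against 21.4% and 21.0% of tested genes. No member passed the stricter rule that also asks for a |log2FC| above 1, which 4.76% of tested genes passed as higher and 3.50% as lower. At an adjusted p under 0.05 there were 2 members higher and 10 lower, against 16.2% and 15.9%, and at an unadjusted p under 0.05 there were 2 and 12, against 21.4% and 20.7%. Single libraries moved these counts. Without NF-YAl A, 3 members were higher and 5 lower, against 10.2% and 9.27% of tested genes in that fit, with a median of -0.04. Without NF-YAl D 0 were higher and 15 lower, against 12.3% and 12.2%, with a median of -0.39, so the share lower was above the background there. The count lower was 2, 1 and 3 without Empty A, B and C, against 7.06, 5.96 and 5.77%, and 3 without NF-YAl B, against 7.08%. The count higher was 0 without any 1 library of Empty or NF-YAs, against 5.84 to 8.59% of tested genes.

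In NF-YAs against Empty, 5 members passed. MCM10, POLE, RFC5 and TIMELESS were higher and ORC6 was lower, against 12.1% of tested genes higher and 10.5% lower, so the share called is again under the background. The median log2FC was 0.18, against -0.0026 over all tested genes, and 44 of the 58 values were positive and 14 negative, against 49.7% and 50.3% of tested genes. The groups did not overlap for 27 members higher in NF-YAs and 5 lower, against 29.2% and 27.1%. MCM10 alone also had a |log2FC| above 1, against 5.44% of tested genes higher and 3.90% lower. At an unadjusted p under 0.05, 10 members were higher and 2 lower, against 23.1% and 21.9%. Without NF-YAl A, which alters the shared spread, 9 members were higher and 2 lower, MCM2, CCNE1, LIG1, TK1 and UHRF1 being added to the 4, against 15.3% and 13.4% of tested genes in that fit, so the share higher was about the background. Both lines are set against the same 3 Empty libraries, so their values share that reference.

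The lines were also compared directly. ORC1, MCM10, POLA2, POLD1, POLE and TIMELESS were lower in NF-YAl than in NF-YAs, and 0 members were higher in edgeR. Over all tested genes 6.25% were lower and 4.70% higher. At an unadjusted p under 0.05, 27 members were lower and 1 was higher, against 18.8% and 17.7% of tested genes, and DESeq2 called 12 lower and 1 higher, against 9.27% and 7.51%. The median log2FC was -0.38, against 0.02 over all tested genes, and 54 of 58 values were negative and 4 positive, against 48.1% and 51.9%. The groups did not overlap for 29 members lower in NF-YAl and 1 higher, against 20.9% and 18.6% of tested genes. At an adjusted p under 0.05, 23 members were lower and 1 higher, against 12.5% and 10.8%, and 0 members had a |log2FC| above 1 beside an adjusted p under 0.01, against 2.86% and 1.74%. Without NF-YAl A, 8 members were lower and 1 higher at 0.01, against 6.33% and 4.71% of tested genes in that fit, with a median of -0.19. Without NF-YAl D 25 were lower and 0 higher, against 8.81% and 6.99%, with a median of -0.58. The count lower was 3 without Empty A and 3, 2 and 2 without NF-YAs A, B and C, against 5, 3.95, 3.29 and 2.97% of tested genes.

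**Figure D2:**
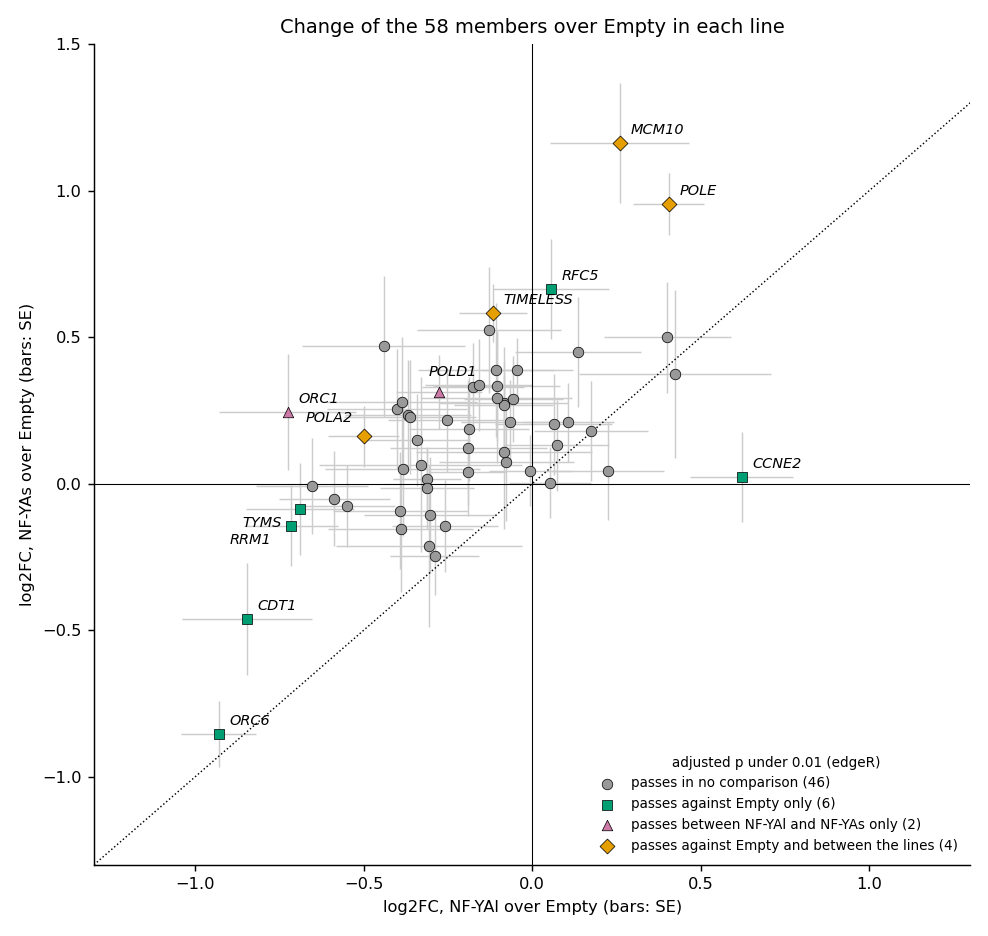
log2FC of each of the 58 members in NF-YAl over Empty on the horizontal axis and in NF-YAs over Empty on the vertical axis, with bars of 1 SE and the dotted line of equal values. Marker shapes give the comparisons with an adjusted p under 0.01, and 54 of 58 points lie above the dotted line, the axes sharing the Empty libraries.

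Taken 1 library at a time, NF-YAl gave a different account in each. The change of a member in a library was taken as its log2(CPM) minus the mean log2(CPM) of the 3 Empty libraries. Its median over the members was -0.70 in NF-YAl A, -0.15 in NF-YAl B and 0.09 in NF-YAl D, and 0.20, 0.16 and 0.16 in NF-YAs A, B and C. The Empty libraries themselves were at 0.05, 0.09 and -0.12. Over 11114 genes with at least 5 CPM in each library, the medians were -0.07, -0.03 and -0.006 in NF-YAl A, B and D. Below the Empty mean were 55 of 58 members in NF-YAl A, 39 in B and 25 in D, against 6215, 5935 and 5631 of those 11114 genes. Above it were 44, 40 and 43 members in NF-YAs A, B and C, against 5716, 5557 and 5521 of the 11114 genes. The 3 members above every Empty library in NF-YAl A were CCNE2, POLE and RFC1.

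The summed CPM of the 58 members was 1705 in NF-YAl A, 2460 in B and 2786 in D. In Empty it was 2726 ± 188 (SD, n = 3) and in NF-YAs 3097 ± 18.5. The highest CPM of a member was a median of 1.69 times the lowest within NF-YAl, against 1.18 within Empty and 1.11 within NF-YAs. The same ratio over all genes with at least 5 CPM in each library was 1.28, 1.14 and 1.12. BRCA2, which acts in the repair of broken forks by recombination, varied most within NF-YAl, at 8.75, 12.1 and 25.4 CPM in A, B and D. LIG1, the ligase that joins Okazaki fragments, varied least there, at 27.2, 31.5 and 28.5 CPM.

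Other measures moved with these libraries. The median change of 24 G2/M and mitotic genes was -1.27 in NF-YAl A, -0.41 in B and -0.09 in D. Of the 24, 24, 24 and 15 were below the Empty mean, against 6215, 5935 and 5631 of 11114 genes with at least 5 CPM in each library. MKI67, a marker of cycling cells, was at 155, 263 and 253 CPM in NF-YAl A, B and D, against 287 ± 25.3 in Empty and 402 ± 6.95 in NF-YAs (SD, n = 3). Reads of small noncoding RNA took 1.25% of the counts of NF-YAl D and 3.09 to 6.44% of the other libraries, and ribosomal RNA took 2.66 to 7.71%. On the scale of the deposited TPM the median change of the members was -0.54, -0.22 and 0.91 in NF-YAl A, B and D, while that of all tested genes was 0.16, -0.08 and 0.79. Relative to all tested genes the members were thus at -0.69, -0.13 and 0.11. The part of these measures in the differences between libraries was not tested.

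**Figure D3:**
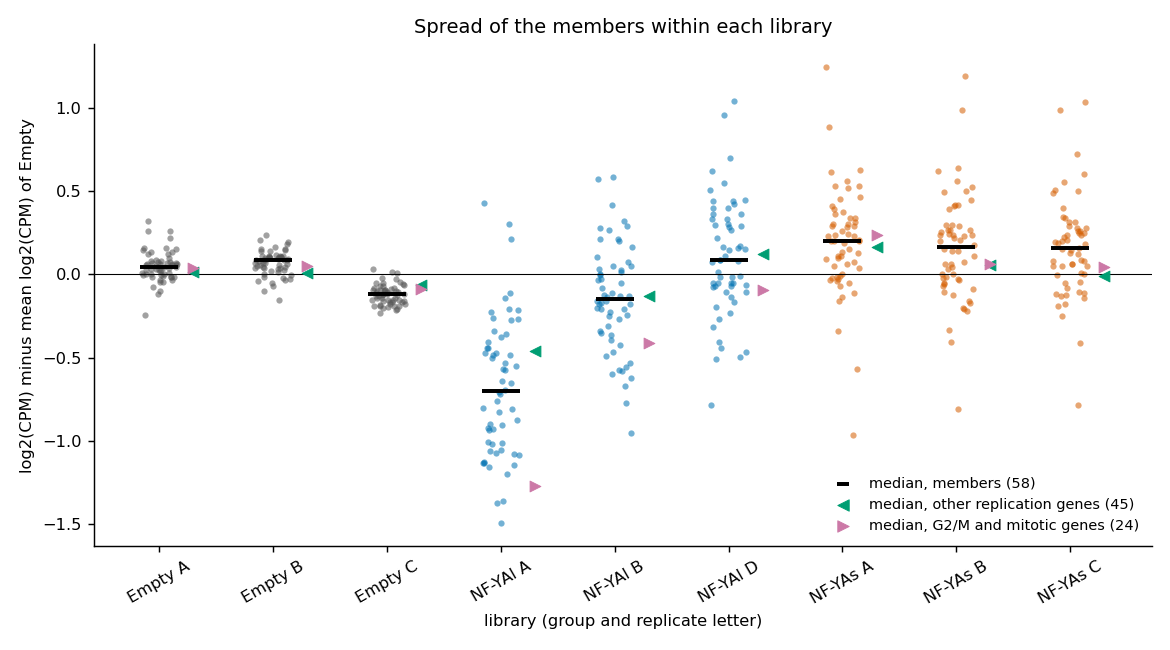
Change of each member in each library, as log2(CPM) minus the mean log2(CPM) of the Empty libraries, with 1 point per gene, 58 per library. Black bars are medians of the members, from -0.70 in NF-YAl A to 0.20 in NF-YAs A, and triangles are medians of 45 other replication genes (left) and 24 G2/M genes (right).

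Of the 5 origin licensing genes, 2 were lower in NF-YAl and 1 of these also in NF-YAs, against 9.54% and 10.5% of tested genes. DESeq2 called 4 lower in NF-YAl against Empty, with ORC1 and CDC6 added, against 12.1%. ORC6, the smallest subunit of the origin recognition complex, was at 51.0, 44.3 and 42.8 CPM in Empty A, B and C. It was at 22.1, 23.7 and 26.6 CPM in NF-YAl A, B and D, and at 23.5, 26.2 and 26.7 CPM in NF-YAs A, B and C. All 6 libraries of the overexpressing lines were under every Empty library, and the lines overlapped each other. Relative to Empty the log2FC was -0.93 ± 0.11 with NF-YAl (SE, edgeR adjusted p = 7.17e-05), or 1.91-fold lower, and -0.85 ± 0.11 in NF-YAs (adjusted p = 0.000109). ORC6 passed against Empty under all 16 alternatives in both lines. It lies at chr16:46723555-46732306 on the plus strand (GRCh37, GENCODE), and its 100 nearest tested genes were at a median log2FC of -0.38 in NF-YAl and -0.27 in NF-YAs.

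CDT1, the loader of the helicase ring, was at 38.9, 38.4 and 35.0 CPM in Empty, 13.3, 21.9 and 27.1 CPM in NF-YAl A, B and D, and 25.2, 28.2 and 28.2 CPM in NF-YAs. NF-YAl A was the lowest library, and both lines were under every Empty library. The log2FC of NF-YAl over Empty was -0.85 ± 0.19 (SE, edgeR adjusted p = 0.00538), and -0.61 without NF-YAl A and -1.08 without NF-YAl D, both with an adjusted p under 0.01. The adjusted p was above 0.01 in a fit of only the 2 groups and without Empty A, B or C or NF-YAl B, and at most 0.0226 over 16 alternatives. In NF-YAs it was -0.46 ± 0.19 (adjusted p = 0.0806). The 81 nearest tested genes of CDT1 were at a median log2FC of -0.39 in NF-YAl and -0.26 in NF-YAs.

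ORC1, the large subunit that binds ATP, was at 14.0, 15.6 and 11.96 CPM in Empty, 5.30, 9.98 and 9.69 CPM in NF-YAl A, B and D, and 16.9, 16.6 and 15.8 CPM in NF-YAs. NF-YAl was under both other groups in every library. Between the lines the log2FC was -0.97 ± 0.20 (SE, edgeR adjusted p = 0.00551), or 1.96-fold lower in NF-YAl. That p was above 0.01 in a fit of only the 2 groups and without Empty A or any 1 NF-YAs library, at most 0.0229 over the alternatives. Against Empty it was -0.72 ± 0.20 in NF-YAl (adjusted p = 0.0167), above the threshold. CDC6, the ATPase that acts beside ORC, was just above it in NF-YAl, with a log2FC of -0.65 ± 0.17 (adjusted p = 0.0101). GMNN, the inhibitor of CDT1, had a log2FC of 0.06 in NF-YAl and 0.20 in NF-YAs and passed in no comparison.

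None of the 6 genes of the MCM2-7 helicase passed in any comparison in the main edgeR fit or DESeq2. Without NF-YAl D, MCM4 and MCM5 passed as lower in NF-YAl than in NF-YAs. Without NF-YAl A, MCM2 passed as higher in NF-YAs than in Empty. At an unadjusted p under 0.05, the main fit had 1 lower in NF-YAl against Empty, 1 higher in NF-YAs against Empty and 3 lower in NF-YAl against NF-YAs. The shares of tested genes at that cut were 20.7, 23.1 and 18.8%. The log2FC ran from -0.36 to 0.14 in NF-YAl and from 0.02 to 0.45 in NF-YAs, where all 6 were positive. MCM7, the highest of them in TPM, was at 135, 142 and 125 CPM in Empty, 76.9, 134 and 142 CPM in NF-YAl A, B and D, and 147, 152 and 159 CPM in NF-YAs. The NF-YAs libraries were above all the others, and in NF-YAl library A alone was below Empty. The log2FC of MCM7 was -0.19 ± 0.18 (SE) in NF-YAl and 0.19 ± 0.18 in NF-YAs, and without NF-YAl A the first was 0.04. MCM2 had the largest value of the ring in NF-YAs, 0.45 ± 0.19 (adjusted p = 0.0813).

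In origin firing the lines each had 1 member higher, and not the same one. MCM10, which joins the helicase to polymerase alpha, was at 9.48, 8.82 and 8.66 CPM in Empty, 7.11, 10.4 and 14.6 CPM in NF-YAl A, B and D, and 21.3, 20.6 and 18.4 CPM in NF-YAs. The 3 NF-YAs libraries were above all others, and NF-YAl lay on both sides of Empty. The log2FC of NF-YAs over Empty was 1.16 ± 0.20 (SE, edgeR adjusted p = 0.00092), or 2.24-fold, and passed under all 16 alternatives. Between the lines it was -0.90 ± 0.20 (adjusted p = 0.00802), -0.68 without NF-YAl A and -1.18 without NF-YAl D. This call was lost in a fit of only the 2 groups and without NF-YAl B or any 1 library of Empty or NF-YAs, with an adjusted p of at most 0.0324. MCM10 lies at chr10:13203558-13253110, and the 94 nearest tested genes were at a median log2FC of 0.42 in NF-YAs.

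CCNE2, a cyclin E, was at 13.8, 12.4 and 11.9 CPM in Empty, 17.0, 16.9 and 24.6 CPM in NF-YAl A, B and D, and 12.6, 12.9 and 13.1 CPM in NF-YAs. All NF-YAl libraries were above all others, with NF-YAl D the highest. The log2FC of NF-YAl over Empty was 0.62 ± 0.15 (SE, edgeR adjusted p = 0.00839), and without NF-YAl D it was 0.42 (adjusted p = 0.0139), past the threshold no longer. The same held without any 1 library of Empty or NF-YAs, in a fit of only the 2 groups and with a replicate block, and the adjusted p was at most 0.0424 over the alternatives. CCNE2 overlaps INTS8 and NDUFAF6 on the opposite strand, and whether reads were counted by strand is not stated. Its 100 nearest tested genes were at a median log2FC of 0.33 in NF-YAl and 0.06 in NF-YAs. Its paralog CCNE1 had a log2FC of 0.40 ± 0.19 in NF-YAl and 0.50 ± 0.19 in NF-YAs (adjusted p = 0.128 and 0.0589). CDC45 and the 4 GINS genes, the other parts of the active helicase, passed in no comparison in the main fit. Without NF-YAl D, GINS1 passed as lower in NF-YAl against Empty, and GINS1 and GINS4 as lower in NF-YAl against NF-YAs.

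Of the polymerases and primase, POLE stood out in NF-YAs. POLE, the catalytic subunit of the leading strand polymerase, was at 79.4, 78.6 and 70.6 CPM in Empty, 88.4, 114 and 100.2 CPM in NF-YAl A, B and D, and 141, 151 and 151 CPM in NF-YAs. The groups did not overlap and stood in that order. The log2FC over Empty was 0.95 ± 0.11 in NF-YAs (SE, edgeR adjusted p = 3.61e-05), or 1.94-fold, and 0.40 ± 0.11 in NF-YAl (adjusted p = 0.0115). Without NF-YAl A the latter was 0.49 (adjusted p = 0.00183). The NF-YAs call passed under all 16 alternatives. Between the lines the log2FC was -0.55 ± 0.11 (adjusted p = 0.0033), with an adjusted p above 0.01 with only the 2 groups fitted or without NF-YAs B or C, and of at most 0.0200 over the alternatives. POLE lies near the end of chromosome 12, at chr12:133200339-133263962, and its 62 nearest tested genes were at a median log2FC of 0.61 in NF-YAs and 0.33 in NF-YAl. Over 15295 placed genes, that neighbourhood median ran from -0.36 to 0.34 between the 5th and 95th percentiles in NF-YAs, and from -0.23 to 0.33 in NF-YAl. POLE was not alone in lying outside these ranges. The neighbourhood medians of MCM10 and RFC5 in NF-YAs, of ORC6, CDT1 and RRM1 in NF-YAl, and of TYMS in both lines also did. Those of TIMELESS in NF-YAs and of CCNE2 and POLA2 in NF-YAl lay inside. The part of the region in the change of a member was not tested. Its accessory subunit POLE2 had log2FC of 0.07 and -0.08 in the lines.

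POLA2, the B subunit of polymerase alpha, was at 45.7, 44.98 and 40.7 CPM in Empty, 26.6, 33.2 and 33.0 CPM in NF-YAl A, B and D, and 48.6, 48.6 and 49.8 CPM in NF-YAs. NF-YAl was under every other library. The log2FC was -0.50 ± 0.10 against Empty (SE, edgeR adjusted p = 0.00327) and -0.66 ± 0.10 against NF-YAs (adjusted p = 0.00106). The second passed under all 16 alternatives, and the first was lost with only the 2 groups fitted or without Empty A or B, with an adjusted p of at most 0.0172. The 100 nearest tested genes of POLA2 were at a median log2FC of -0.18 in NF-YAl and -0.05 in NF-YAs. POLD1, the catalytic subunit of polymerase delta, was at 70.2, 78.1 and 63.8 CPM in Empty, 47.5, 64.7 and 62.9 CPM in NF-YAl, and 80.4, 94.0 and 89.3 CPM in NF-YAs. It passed only between the lines, at -0.59 ± 0.13 (adjusted p = 0.0065), and was above 0.01 with only the 2 groups fitted, without Empty A or C, or without any 1 NF-YAs library, at most 0.0353. The primase genes PRIM1 and PRIM2, which make the RNA starts, passed in no comparison in the main fit. Without NF-YAl D, PRIM1 passed as lower in NF-YAl than in NF-YAs.

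Of the 7 clamp and clamp loader genes, RFC5 alone passed in the main fit, as higher in NF-YAs, against 12.1% of tested genes. RFC5, a small subunit of the loader, was at 23.4, 24.9 and 22.9 CPM in Empty, 16.7, 26.6 and 30.5 CPM in NF-YAl A, B and D, and 36.6, 37.02 and 39.2 CPM in NF-YAs. NF-YAs was above every other library. The log2FC over Empty was 0.66 ± 0.17 (SE, edgeR adjusted p = 0.0095), just inside the threshold. It was above it without NF-YAl B or any 1 library of Empty or NF-YAs, at most 0.0416 over the alternatives. RFC5 lies at chr12:118451393-118470935 on the plus strand, overlaps WSB2 on the opposite strand, and had 100 nearest tested genes with a median log2FC of 0.49 in NF-YAs. PCNA was at 95.7, 105 and 93.2 CPM in Empty, 46.4, 78.8 and 98.8 CPM in NF-YAl, and 94.4, 87.0 and 94.7 CPM in NF-YAs. It passed in no comparison in the main fit, but passed as lower in NF-YAl against Empty without NF-YAl D.

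None of the RPA and Okazaki fragment genes passed in the main edgeR fit. Without NF-YAl D, FEN1 and RPA3 passed as lower in NF-YAl than in NF-YAs. LIG1 passed as higher in NF-YAs than in Empty without NF-YAl A or without NF-YAl D. At an unadjusted p under 0.05 in the main fit, 1 was lower in NF-YAl and 1 higher in NF-YAs against Empty, and 2 were lower in NF-YAl against NF-YAs. The shares of tested genes at that cut were 20.7, 23.1 and 18.8%. DESeq2 called 0, 1 and 1, against 12.1, 14.5 and 9.27%. FEN1, the flap nuclease and the highest of them in TPM, was at 86.1, 92.9 and 79.7 CPM in Empty, 42.6, 72.4 and 85.1 CPM in NF-YAl A, B and D, and 106, 100.2 and 98.4 CPM in NF-YAs. NF-YAs was above all other libraries. The log2FC was -0.37 ± 0.19 (SE) in NF-YAl and 0.24 ± 0.19 in NF-YAs. LIG1 came close in NF-YAs, at 0.39 ± 0.11 (adjusted p = 0.0146).

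Of the 5 nucleotide supply genes, 2 were lower in NF-YAl against Empty, against 9.54% of tested genes. RRM1, the large subunit of ribonucleotide reductase, was at 121, 131 and 114 CPM in Empty, 55.8, 80.6 and 86.6 CPM in NF-YAl A, B and D, and 111, 109 and 111 CPM in NF-YAs. TYMS, thymidylate synthase, was at 102, 103 and 90.8 CPM in Empty, 42.9, 68.0 and 72.3 CPM in NF-YAl, and 96.5, 95.1 and 87.0 CPM in NF-YAs. In both, every NF-YAl library was under every other library. The log2FC of NF-YAl over Empty was -0.72 ± 0.14 for RRM1 (SE, edgeR adjusted p = 0.00205) and -0.69 ± 0.16 for TYMS (adjusted p = 0.00591). Without NF-YAl A these were -0.55 and -0.49, both with an adjusted p under 0.01. RRM1 was above the threshold without Empty B, at 0.0122, and TYMS with only the 2 groups fitted or without Empty A, B or C, NF-YAl B, or NF-YAs A or B, at most 0.0257. TYMS overlaps ENOSF1 and TYMSOS on the opposite strand, and its 53 nearest tested genes were at a median log2FC of -0.50 in both lines. The 100 nearest tested genes of RRM1 were at -0.30 in NF-YAl and -0.16 in NF-YAs. TK1, thymidine kinase, had the widest gap between the lines without passing in the main fit, at -0.91 ± 0.24 (adjusted p = 0.0187). It was at 35.3, 75.3 and 90.0 CPM in NF-YAl A, B and D and 125, 124 and 129 CPM in NF-YAs. TK1 passed as lower in NF-YAl than in NF-YAs by DESeq2, with no filter, with the replicate block, and without NF-YAl A or NF-YAl D.

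**Figure D4:**
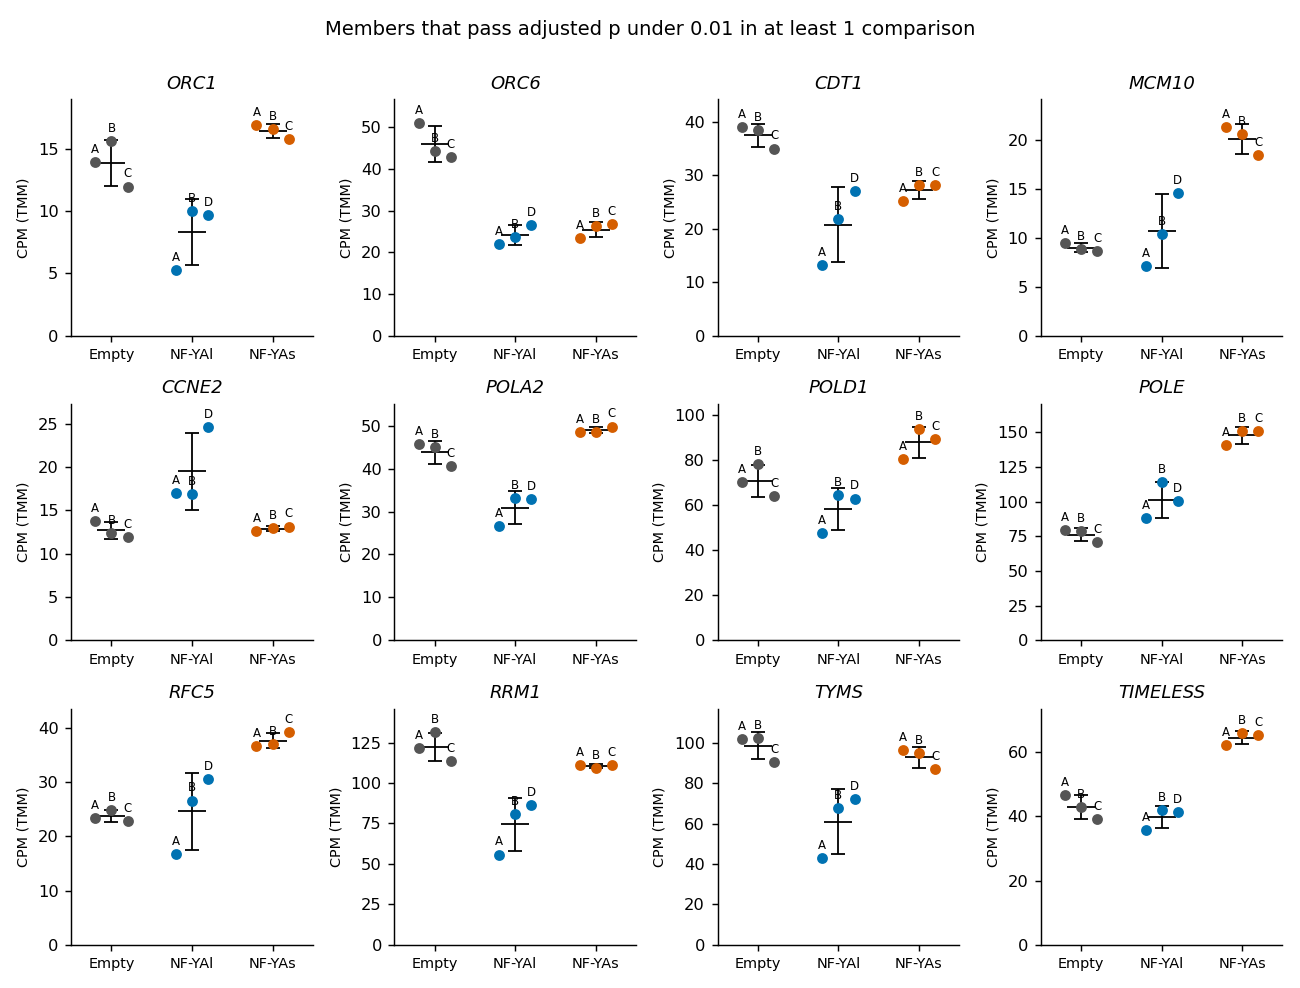
CPM in each library, lettered, for the 12 members with an adjusted p under 0.01 in at least 1 comparison, with bars for the mean and SD of 3 libraries. All vertical axes start at 0. ORC6 is lower in both lines, and MCM10 runs from 18.4 to 21.3 CPM in NF-YAs against 8.66 to 9.48 in Empty.

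None of the chromatin assembly genes passed in any comparison in the main edgeR fit or DESeq2. At an unadjusted p under 0.05, 1 was higher in NF-YAs against Empty and 2 were lower in NF-YAl against NF-YAs. The shares of tested genes at that cut were 23.1% and 18.8%. Without NF-YAl D, UHRF1 passed as lower in NF-YAl than in NF-YAs. UHRF1, which recruits the maintenance methyltransferase behind the fork, was at 125, 125 and 102 CPM in Empty, 63.9, 115 and 144 CPM in NF-YAl A, B and D, and 169, 166 and 172 CPM in NF-YAs. NF-YAs was above all other libraries, and NF-YAl spanned Empty. The log2FC in NF-YAs was 0.52 ± 0.21 (SE, edgeR adjusted p = 0.0763). Without NF-YAl A in the shared fit, that p was 0.00136.

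In fork protection, TIMELESS passed. TIMELESS, which with TIPIN and CLSPN keeps the helicase and polymerases together, was at 46.8, 43.0 and 39.3 CPM in Empty, 35.8, 41.9 and 41.3 CPM in NF-YAl A, B and D, and 62.0, 66.0 and 65.2 CPM in NF-YAs. NF-YAs was above every other library, while NF-YAl overlapped Empty. The log2FC was 0.58 ± 0.10 in NF-YAs over Empty (SE, edgeR adjusted p = 0.000731) and -0.70 ± 0.10 between the lines (adjusted p = 0.000561), and both passed under all 16 alternatives. TIMELESS lies at chr12:56810147-56843210 on the minus strand, and its 100 nearest tested genes were at a median log2FC of 0.13 in NF-YAs. TIPIN, its partner, had 0.18 ± 0.17 in each line, and CLSPN had -0.08 ± 0.15 and 0.27 ± 0.15.

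None of the 5 recombination and repair genes passed in the main edgeR fit. Without NF-YAl D, BRCA1, BRCA2 and MCM8 passed as lower in NF-YAl, both against Empty and against NF-YAs. DESeq2 called BRCA1 and MCM8 lower in NF-YAl against Empty, against 12.1% of tested genes. At an unadjusted p under 0.05 the main edgeR fit had the same 2 lower, against 20.7%. MCM8, a helicase of break repair and the highest of them in TPM, was at 76.7, 76.6 and 67.7 CPM in Empty, 39.3, 49.2 and 62.5 CPM in NF-YAl A, B and D, and 72.3, 69.3 and 68.0 CPM in NF-YAs. NF-YAl was under every other library. Relative to Empty the log2FC was -0.55 ± 0.14 with NF-YAl (SE, edgeR adjusted p = 0.0105) and -0.08 ± 0.14 in NF-YAs. BRCA1 was at -0.59 ± 0.16 in NF-YAl (adjusted p = 0.0164).

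**Figure D5:**
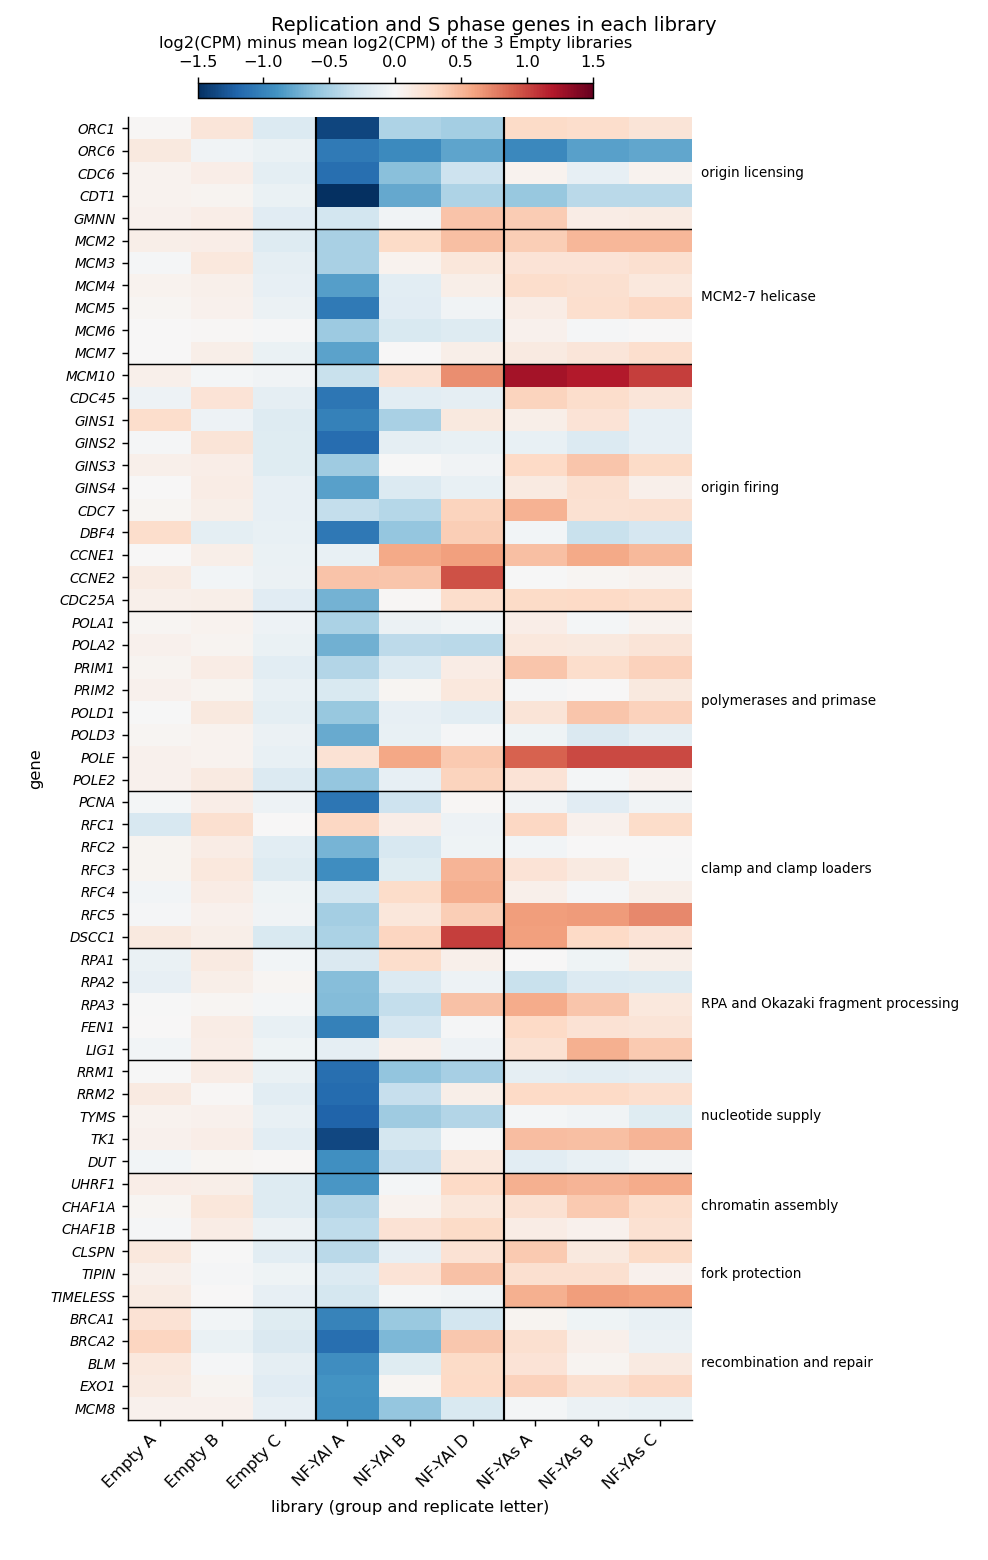
Change of each member (rows, ordered by role) in each library (columns), as log2(CPM) minus the mean log2(CPM) of the 3 Empty libraries, blue for lower and red for higher. NF-YAl A is below the Empty mean in 55 of 58 rows, against 6215 of 11114 genes with at least 5 CPM in each library. NF-YAs C is above it in 43 rows, against 5521 of the 11114 genes.

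The wider pathway was read from 45 other replication genes. In NF-YAl against Empty 5 were lower and 0 higher, against 9.54% and 10% of tested genes, with a median log2FC of -0.14. At an unadjusted p under 0.05, 11 were lower and 4 higher, against 20.7% and 21.4%. SAMHD1, which breaks down deoxynucleotides, was the lowest at -0.85 ± 0.09 (SE), followed by POLD4 at -0.68 ± 0.12, CHTF8 at -0.51 ± 0.11 and CDK2 at -0.43 ± 0.11. In NF-YAs NASP, a histone chaperone, was higher at 0.54 ± 0.11, and DONSON and WEE1 were lower at -0.76 ± 0.14 and -0.92 ± 0.15, against 12.1% and 10.5% of tested genes. Between the lines 5 were lower in NF-YAl and 0 higher, POLE4 by the most at -0.74 ± 0.14, against 6.25% and 4.70% of tested genes. DESeq2 called 6 and 3, against 9.27% and 7.51%. At an unadjusted p under 0.05, 14 were lower and 3 higher, against 18.8% and 17.7%.

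Of the 24 G2/M and mitotic genes, CDC25C at -0.96 ± 0.24 and NDC80 at -0.82 ± 0.17 were lower in NF-YAl against Empty (log2FC and SE). The share called, 8.33%, was below the 9.54% of tested genes called lower and the 19.6% called in either direction. At looser cuts the share was above the background. At an adjusted p under 0.05, 9 were lower, against 15.9%, and at an unadjusted p under 0.05, 13 were lower, against 20.7%. DESeq2 called 6 lower, against 12.1%. The median was -0.50, and all 24 values were negative, against 48.9% of tested genes. In NF-YAs 0 passed in edgeR, with a median of 0.15. At an unadjusted p under 0.05, 6 were higher and 1 lower, against 23.1% and 21.9% of tested genes. DESeq2 called 1 lower, against 12.8%. Between the lines PLK1 at -1.07 ± 0.21 and MKI67 at -0.85 ± 0.16 were lower in NF-YAl. This was 8.33% of the list, against 6.25% of tested genes lower and 11.0% in either direction. At an adjusted p under 0.05, 15 were lower, against 12.5%, and at an unadjusted p under 0.05, 18 were lower, against 18.8%. DESeq2 called 9 lower, against 9.27%. All 24 values were negative, against 48.1% of tested genes, with a median of -0.65. Of 13 E2F and pocket protein genes, TFDP2 and E2F5 were higher in NF-YAl, at 1.04 ± 0.14 and 0.95 ± 0.20, and E2F7, E2F4 and RBL2 were lower, at -0.96 ± 0.11, -0.80 ± 0.17 and -0.67 ± 0.08. These are 38.5% of the list, against 19.6% of tested genes. In NF-YAs TFDP2 and E2F6 were higher and RBL2 was lower, at 0.71 ± 0.14, 0.47 ± 0.11 and -0.89 ± 0.08, or 23.1% of the list against 22.6%. E2F7, a repressor of S phase genes, also passed between the lines, at -0.69 ± 0.11.

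Transcripts were compared by their share of a gene's summed TPM, in percent. There were 98 transcripts of 37 members with a mean of at least 10 expected counts per group, and with 3 libraries against 3 the smallest p of the exact permutation test is 0.1. The smallest adjusted p over 294 two-sided tests was 0.7. The groups did not overlap for 20 transcripts in NF-YAl against Empty, 12 in NF-YAs against Empty and 10 between the lines, or 20.4, 12.2 and 10.2% of the 98. Over 19976 transcripts of all genes under the same filter, these shares were 14.5, 17.9 and 13.7%. The main transcript of MCM8 took 67.3 ± 1.15% in Empty (SD, n = 3), 57.0 ± 6.09% in NF-YAl and 57.3 ± 4.86% in NF-YAs. A transcript of UHRF1 took 8.29, 17.8 and 14.7% in the Empty libraries. Its share was 21.8, 25.7 and 36.3% in those of NF-YAl, and 28.6, 27.1 and 18.3% in those of NF-YAs, both above every Empty library.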

How the data were processed

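The authors aligned the reads of TruSeq Stranded TotalRNA libraries to human transcripts (GRCh37/hg19) with bowtie2 within RSEM and deposited, per library, expected counts, TPM and FPKM of genes and transcripts and the share, in percent, of each transcript in its gene's TPM. The FPKM that the authors deposited are per length and library total and were not used here. The deposited expected counts are estimates that share multi-mapped reads, not normalized. The deposited TPM are corrected for length and scaled to 1 total per library. The version of bowtie2 and the use of strand are not given in the sources used here.

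Expected counts of genes, rounded to whole numbers, went into edgeR 4.0.16 under R 4.3.3 (filterByExpr, TMM, quasi-likelihood F test, 9 libraries in 1 fit, Benjamini-Hochberg adjustment over 17108 genes). A gene passed at an adjusted p under 0.01, and as a DEG with a |log2FC| above 1. SE is |log2FC| over the square root of F. The procedure was tested on simulated data. Some of the marker genes checked are not reported here. The members, roles and lists were chosen with earlier results of these data known.

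Named members were all that passed. Per role, up to 3 of these, or else the member highest in TPM, were given in every library. Of each other list, up to 4 with the largest |log2FC| were named. CDC6, LIG1, BRCA1 and TK1 were near the threshold, and CCNE1, MCM2, PCNA, GMNN, BRCA2, TIPIN and CLSPN were added after their values were seen. Neighbours were up to 50 tested genes on each side in GENCODE annotation of GRCh37. Alternatives were DESeq2 1.42.0, at least 10 counts in every library, RLE scaling, testing without a filter, a replicate block, an effective length offset, only the 2 groups compared, and each library left out. Total counts of 18076979 to 27163976 and 3 libraries per group limit the precision.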

Additional observations from a re-analysis of the deposited data

Results flagged for a closer look

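For 6 members the change over Empty differed between NF-YAl and NF-YAs by the direct test of the lines (edgeR, adjusted p under 0.01). All 6 of the 58 were lower in NF-YAl, against 6.25% of tested genes lower and 4.70% higher. The log2FC of NF-YAl over NF-YAs was -0.97 for ORC1, -0.90 for MCM10, -0.66 for POLA2, -0.59 for POLD1, -0.55 for POLE and -0.70 for TIMELESS. Over Empty, ORC1 was at -0.72 in NF-YAl and 0.24 in NF-YAs, MCM10 at 0.26 and 1.16, POLA2 at -0.50 and 0.16, POLD1 at -0.28 and 0.31, POLE at 0.40 and 0.95, and TIMELESS at -0.12 and 0.58. For all 6, every NF-YAl library was under every NF-YAs library, as it was for 20.9% of tested genes. POLA2 and TIMELESS passed under all 16 alternatives, and the others were lost under 1 or more of them.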

How the results depend on the processing

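No result turned its direction where it had passed the test. The medians over members kept their sign under all 16 alternatives, from -0.43 to -0.04 in NF-YAl against Empty, 0.13 to 0.22 in NF-YAs against Empty and -0.64 to -0.19 between the lines. Counts of members moved more. In NF-YAl against Empty there were 1 higher and 5 lower, but 2 and 9 by DESeq2 (12.3 and 12.1% of tested genes), 2 higher with at least 10 counts in every library, 0 and 2 in a fit of only the 2 groups (6.65 and 6.24%), 2 and 10 at an adjusted p under 0.05, and 0 and 0 with a |log2FC| above 1 as well. In NF-YAs against Empty there were 4 and 1 (12.1 and 10.5%), but 10 and 2 with only the 2 groups (18.9 and 17.2%), and 1 and 0 with a |log2FC| above 1 (5.44 and 3.90%). Between the lines there were 0 and 6 (4.70 and 6.25%), but 1 and 12 by DESeq2 (7.51 and 9.27%) and 0 and 2 with only the 2 groups (2.46 and 3.75%). At 0.05 there were 1 and 23 (10.8 and 12.5%), and with a |log2FC| above 1 at 0.01 there were 0 and 0 (1.74 and 2.86%). Leaving out each library in turn gave 0 to 3 higher and 1 to 15 lower in NF-YAl against Empty, 3 to 9 and 1 to 2 in NF-YAs against Empty, and 0 to 1 and 2 to 25 between the lines, with medians of -0.39 to -0.04, 0.13 to 0.22 and -0.58 to -0.19. With the replicate letter as a replicate block there were 0 higher and 19 lower in NF-YAl against Empty (11.7 and 12.6% of tested genes), 5 and 1 in NF-YAs against Empty (16.3 and 14.8%), and 0 and 30 between the lines (7.01 and 9.43%). NF-YAl D is the only library with its letter, so by construction the block takes it out of the comparison. Correlations of residuals were -0.07 to 0.25 over 7 same-letter pairs, with a mean of 0.09, and -0.22 to 0.16 over 20 other pairs, with a mean of -0.03. The highest of all was between Empty B and NF-YAl B, and a library correlated best with its own letter in 10 of 14 cases, but only 3 of the 7 were over 0.1 and the labels give the letters no meaning, so they were not taken to pair samples. On the deposited TPM, log2(TPM + 0.1), the median change was 0.91 in NF-YAl D, 0.50, 0.32 and 0.23 in NF-YAs A, B and C, with -0.54 and -0.22 in NF-YAl A and B. Of values for members that passed, 218 kept their side of the threshold and 54 lost it. Apart from the block and the fits with fewer libraries, the cause of these shifts was not tested.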
